A study of Mus musculus with 20 samples.

Results

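The genes described here are 9 hormone genes of the mouse kidney: the receptors for estrogen (*Esr1*, *Gper1*), glucocorticoid (*Nr3c1*), mineralocorticoid (*Nr3c2*), prolactin (*Prlr*) and growth hormone (*Ghr*), the estrogen-related receptors *Esrra* and *Esrrg*, and *Hsd11b1*, an enzyme that regenerates active glucocorticoid inside cells. These 9 genes were taken by name from the 24411 gene symbols of the count table, and all 9 had enough reads to be tested in every comparison. RNA of whole kidneys was sequenced at P125 from 20 mice, 5 in each of 4 groups. The mutants were male or female Pkd2 fl/fl mice with Pax8 rtTA and TetO Cre, a pair of transgenes that lets doxycycline (DOX) switch on Cre in the cells where the *Pax8* promoter works, which are the tubule cells of all nephron segments. The controls, labelled only as such, were littermates lacking one of those transgenes. All 20 mice, controls included, were of C57BL/6 background and received DOX by intraperitoneal injection at 50 mg per kg on each day from P27 to P29. Cells outside the tubules, such as those of the interstitium, keep *Pkd2* in the mutants. Mice are named by sex, genotype and number, so that FM4 is a female mutant and MC1 a male control, and the 3 litters are called A, B and C. The questions addressed were whether the receptor levels differ between mutants and controls, between males and females, and with kidney weight to body weight (KBW, in percent), since the study was about sex as a modifier of cystic disease.

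Steroid receptors are transcription factors that sit idle until their hormone enters the cell, and then bind DNA at short repeated motifs. The mineralocorticoid receptor works mainly in the distal nephron, where it raises sodium uptake, and it binds cortisol-like steroids as well as aldosterone. HSD11B2 protects it there by inactivating glucocorticoid, while HSD11B1 runs the reaction the other way. The prolactin and growth hormone receptors are cell surface receptors of the cytokine family that signal through JAK2 and STAT5. The estrogen-related receptors bind no estrogen, and with the coactivators PGC-1α and PGC-1β they drive genes of mitochondrial energy production. In rodents the pattern of growth hormone release and the androgen level differ between the sexes, and both are known to shape sex-specific gene expression in liver and kidney.

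RefSeq promoter windows on GRCm38.p6 (mm10), each from 250 bases before to 50 bases after a start, were listed for 8 of the 9 genes, 15 windows in all. They were searched on both strands for 5 motifs of the receptors' own pathways. The STAT5 element TTCNNNGAA was found in 2 windows, 1 of *Prlr* and 1 of *Esr1*, and it occurs in 8.3% of all 32851 windows of this length. None of the 15 windows held the palindromic estrogen response element, which 0.07% of all windows hold, the estrogen-related receptor element TCAAGGTCA (0.423%), the half-site AGGTCA that is part of it (16.3%), or the palindromic element of the other steroid receptors (0.475%). *Prlr* had 3 windows listed and *Esr1* had 2, and the other windows of each gene held no searched motif. The 2 windows with a match are shown, with the matched letters in capitals. In both the match reads TTCTAGGAA on the plus strand, starting at position -110 in *Prlr* and at -188 in *Esr1*, counted from the start of transcription. A match of letters does not show that a factor binds.
Prlr, chr15:10223656-10223955, plus strand: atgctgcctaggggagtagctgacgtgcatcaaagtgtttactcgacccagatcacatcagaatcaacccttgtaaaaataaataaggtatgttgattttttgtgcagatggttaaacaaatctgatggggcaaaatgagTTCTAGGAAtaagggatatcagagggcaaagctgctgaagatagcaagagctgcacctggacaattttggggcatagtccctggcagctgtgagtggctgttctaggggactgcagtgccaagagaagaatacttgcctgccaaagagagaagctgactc
Esr1, chr10:4709908-4710207, plus strand: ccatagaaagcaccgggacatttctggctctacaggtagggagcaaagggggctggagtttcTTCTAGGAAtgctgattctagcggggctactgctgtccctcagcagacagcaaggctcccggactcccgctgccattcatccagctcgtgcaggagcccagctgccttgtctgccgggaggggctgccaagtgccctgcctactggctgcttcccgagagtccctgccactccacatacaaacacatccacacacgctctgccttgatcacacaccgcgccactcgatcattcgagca

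The libraries held 11307741 to 19324073 counts. *Pkd2*, the deleted gene, averaged 292 ± 31.3 CPM (counts scaled to a common library size, SD, n = 5) in male controls and 119.5 ± 9.85 in male mutants, and 257 ± 48.7 in female controls and 145 ± 33.7 in female mutants. Its 20 values did not overlap between genotypes within a sex. The FM4 library stood apart, with 14850 genes detected, where every other library had 16776 to 17724, and with 76 genes with a single count against 708 to 859, so results that rest on it are also given without it. The labelled tissue was borne out by kidney markers: the summed level of 10 proximal tubule markers was between 8786 and 19155 CPM in every mouse, and that of 6 markers of the loop of Henle and distal tubule between 4948 and 13132 CPM. Adrenal cortex, a source of steroid genes that can be taken along with a kidney, was near absent: 6 markers summed to between 4.75 and 8.82 CPM, 5 of the 6 were under 1 CPM in each group, and *Cyp11b2* had no count in any of them. Fat was uneven: 4 adipose markers summed to 96.9 CPM in FM3, 30.1 in FC3, 24.2 in FC5, 16.2 in MM4 and 12.8 in MC4. Every other mouse was at 6.31 CPM or less. FM3 also had the highest normalization factor, 1.23, where the other libraries had 0.910 to 1.08. Genes of 3 other kinds were higher in mutants, with 5 of 5 injury, 4 of 6 fibroblast and 5 of 5 macrophage markers called in the joint comparison of both sexes. There 15.9% of all genes were called. The summed markers of tubule injury ranged from 11.1 to 24.2 CPM in controls and from 47.6 to 647 CPM in mutants, those of fibroblasts from 180 to 359 and from 316 to 1176 CPM, and those of macrophages from 80.1 to 132 and from 106 to 336 CPM. In whole kidneys, fewer cells of a type and less RNA per cell cannot be told apart.

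Per kilobase of exon, *Ghr* was the most abundant of the 9 genes in each of the 4 groups, at a mean of 97.8 CPM per kb over the 20 mice. *Esrra* was at 35.3, *Nr3c1* at 19.3 and *Esrrg* at 15.9 CPM per kb over the 20 mice. The places of *Prlr* and *Hsd11b1* depended on sex. In female controls *Prlr* was at 25.1 and *Hsd11b1* at 14.0 CPM per kb, and in male controls *Prlr* was at 1.83, below the mineralocorticoid receptor *Nr3c2* at 2.54, and *Hsd11b1* at 32.8 CPM per kb. *Esr1* and *Gper1*, the membrane estrogen receptor, were the lowest in every group. They were at 1.43 and 0.556 CPM per kb in male controls, and close to each other at 0.925 and 0.920 in female controls. The genes also differed in how much they varied between mice. The highest mouse exceeded the lowest by 37.1 times for *Prlr* and by 5.28 times for *Hsd11b1*, but by 1.41 times for *Nr3c1* and 1.52 times for *Esrrg*.

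**Figure D1:**
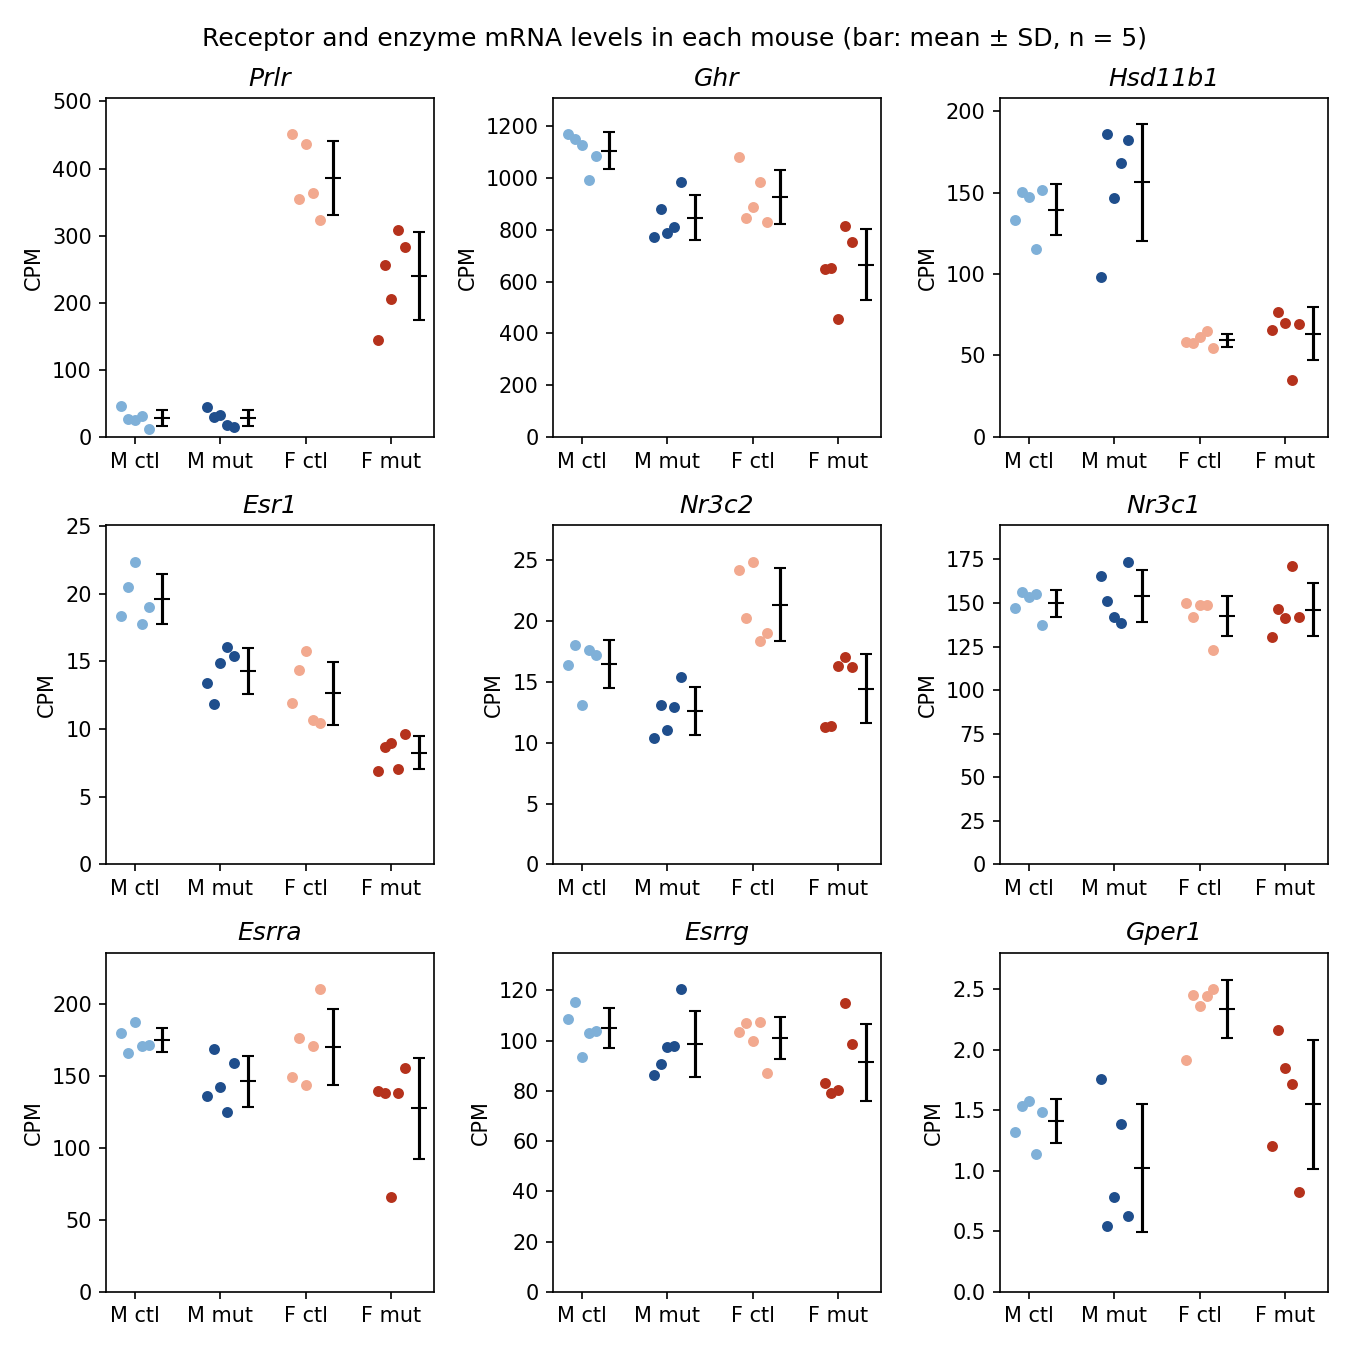
Level of each of the 9 genes in every mouse, in CPM on linear axes that start at 0, for the 4 groups (M males, F females, ctl controls, mut mutants); points are mice and bars are the mean ± SD of 5 mice. *Prlr* is at 12.1 to 46.8 CPM in the 10 males and at 145 to 451 CPM in the 10 females, and *Nr3c1* lies between 123 and 174 CPM in all 20 mice.

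In mutants 3 of the 9 genes were lower when both sexes were compared jointly: *Esr1*, *Nr3c2* and *Ghr*. A gene was called a DEG at an adjusted p under 0.01 in edgeR's quasi-likelihood test with Benjamini-Hochberg adjustment over all genes tested. In this joint comparison 15.9% of all genes were DEGs and 5.86% were DEGs with lower levels in mutants. None of the 9 was called higher. In males 1 of the 9 was a DEG, *Ghr*, where 8.46% of all genes were and 3.2% were lower in mutants. The number of DEGs among all genes in males, 1185, moved by over 1.5 times without any mouse but MM1, from 187 without MC4 to 1863 without MM2. In females edgeR called none of the 9, where 0.637% of all genes were DEGs, although 5 of the 9 had an unadjusted p under 0.05 (20.6% of all genes did) and DESeq2 called 1, *Prlr*. The number of DEGs among all genes in females, 92, was 866 without FM4 and between 3 and 57 without any other single mouse, and none of the 9 was called in any of these. Between the sexes, 3 of the 9 were DEGs in controls (17.8% of all genes) and 3 in mutants (5.42% of all genes), and they were the same 3 genes: *Prlr*, *Hsd11b1* and *Esr1*. Male and female mice did not overlap for 5 of the 9 in controls (24.1% of all genes) and for 3 in mutants (13.3%). The median log2 fold change of the 9 genes in the joint comparison was -0.34, and that of all genes tested was -0.01.

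**Figure D2:**
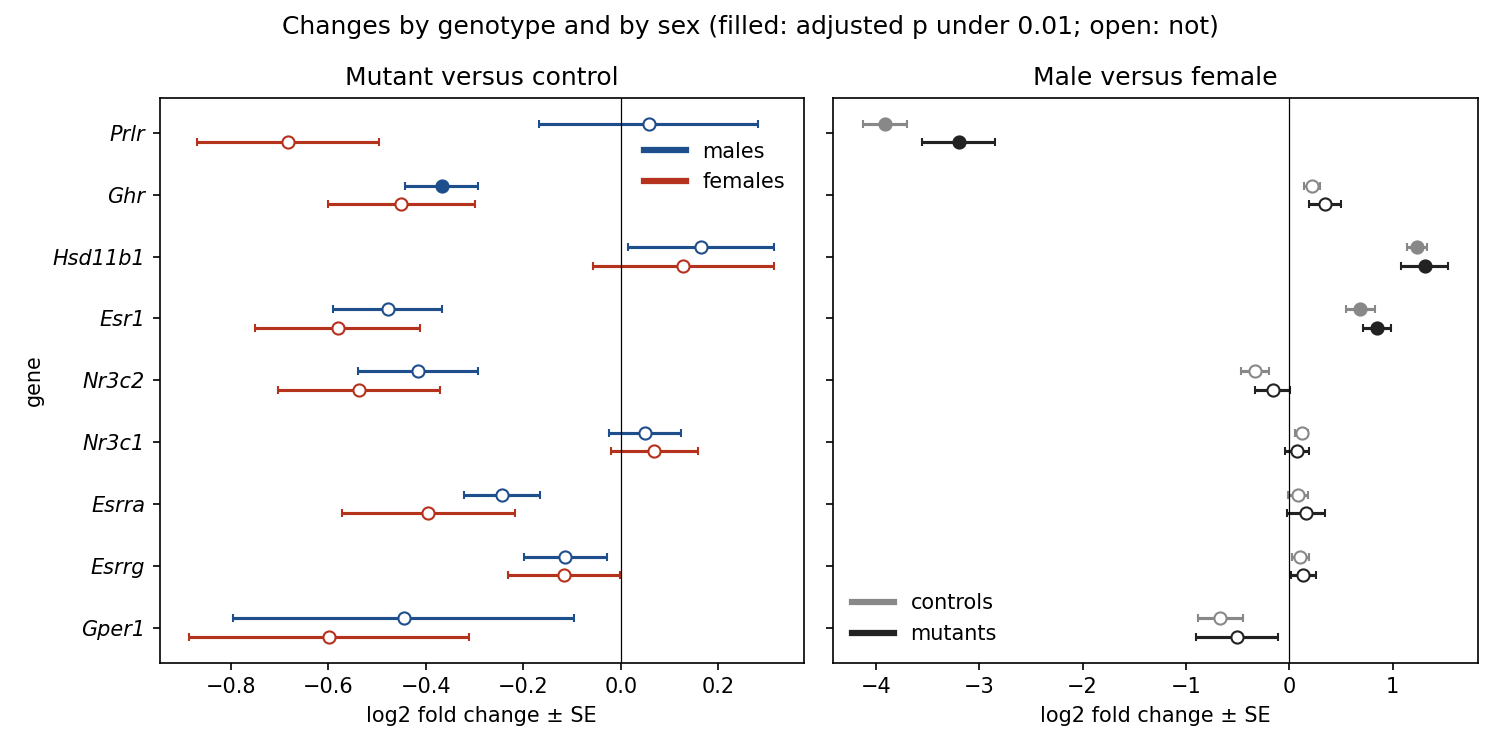
Log2 fold changes with their SE for the 9 genes, mutant versus control on the left (males and females) and male versus female on the right (controls and mutants); filled points had an adjusted p under 0.01. On the left only *Ghr* in males is filled, at -0.37, and on the right *Prlr*, *Hsd11b1* and *Esr1* are filled in both genotypes; the axes of the panels have different ranges.

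*Prlr*, the prolactin receptor, showed the widest sex difference of the 9 genes. It lies on chromosome 15 (10177238 to 10349180, plus strand, GENCODE on mm10), and its exons share 100 bases with *Gm21973* on the same strand, a symbol that the count table does not list. The 5 female controls were at 323, 355, 363, 436 and 451 CPM, and the 5 male controls at 12.1, 25.2, 26.1, 30.4 and 46.8 CPM. In mutants the females were at 145, 205, 256, 283 and 309 CPM and the males at 14.8, 17.0, 29.7, 32.6 and 44.1 CPM. No female of either genotype came near the highest male. The log2 fold change of males against females was -3.91 ± 0.213 (SE) in controls (adjusted p = 6.1e-08, edgeR), a level 15.1 times higher in females, and -3.20 ± 0.351 in mutants (adjusted p = 2.6e-04), 9.18 times higher in females. The direction was the same in all 3 litters of each genotype, and the call held with each mouse left out in turn. All 5 female mutants lay below all 5 female controls, with means of 240 ± 65.4 and 386 ± 55.1 CPM. The log2 fold change was -0.68 ± 0.187 (adjusted p = 0.060, edgeR), so it was not called, and with DESeq2 it was (adjusted p = 0.0060). Without FM4 it was -0.78 (adjusted p = 0.023). Within litters it was -1.64 in A, -0.60 in B and -0.19 in C, where A and C hold 1 mouse of each genotype. In males the genotypes were alike in mean, 28.1 ± 12.5 and 27.6 ± 12.0 CPM. The test of whether the genotype effect differed between the sexes gave 0.77 ± 0.322 on the log2 scale (unadjusted p = 0.029, adjusted p = 1.0), where 4.17% of all genes had an unadjusted p under 0.05 and edgeR called none of the 14820 genes, against 18 with DESeq2, none of them among the 9.

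Over the 20 mice, the genes whose log2 CPM followed *Prlr* most closely were *Slc7a12*, an amino acid transporter of the SLC7 family (r = 0.987), *Kynu*, which encodes kynureninase of tryptophan breakdown (r = 0.974), and *Scd1*, which encodes a fatty acid desaturase (r = 0.967). These are descriptions over mice that share sex, litter and genotype, chosen as the closest among 13772 genes. The sexes formed separate clusters for *Prlr*, so r mostly sets females against males.

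*Ghr*, the growth hormone receptor on chromosome 15 (3317760 to 3583492, minus strand), fell in mutants. The male controls were at 991, 1087, 1127, 1152 and 1169 CPM, and the male mutants at 771, 788, 810.2, 881 and 983 CPM, below every control. The female controls were at 831, 846, 890, 986 and 1080.3 CPM, and the female mutants at 455, 647, 653, 753 and 815 CPM, again without overlap. *Ghr* and *Esr1* were the 2 genes of the 9 whose genotypes did not overlap in males, where 15.3% of all genes did not overlap and 6.45% lay lower in mutants without overlap. In females 4 of the 9 did not, *Esr1*, *Nr3c2*, *Prlr* and *Ghr*, against 7.14% of all genes, and 3.54% in the same direction. The joint log2 fold change of *Ghr* was -0.41 ± 0.0898 (adjusted p = 0.0022, edgeR), and with each mouse left out in turn it stayed between -0.46 and -0.37, with adjusted p between 4.3e-04 and 0.0069. Males alone had -0.37 ± 0.0743 (adjusted p = 0.0063), and females alone -0.45 ± 0.150, which was not called (adjusted p = 0.11). Without FM4 the female value was -0.56, also not called (adjusted p = 0.024). Without FM3, the mouse with the highest adipose sum, it was -0.36 and not called. The call in males was lost without MC1, MC2, MC3, MC4, MM3 or MM4, each left out alone, with adjusted p between 0.0124 and 0.0334. It was also lost with all 20 mice in a single fit (adjusted p = 0.055). In every litter and both sexes the mutants were lower, by -0.14 in litter C for females to -0.74 in litter A for females. Males were 0.22 ± 0.0790 (SE) above females on the log2 scale in controls (adjusted p = 0.056) and 0.35 ± 0.153 above them in mutants (adjusted p = 0.16). Male controls had the highest mean, then female controls, male mutants and last female mutants, and each group overlapped the next.

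The genes closest to *Ghr* over the 20 mice were *Pkp4* (r = 0.970), an armadillo protein of cell junctions, *Slc25a16* (r = 0.943), a mitochondrial carrier, and *Ehhadh* (r = 0.937), a peroxisomal enzyme of fatty acid oxidation. The summed proximal tubule markers were 18190 to 18897 CPM in male controls, 12761 to 19155 in male mutants, 13467 to 15878 in female controls and 8786 to 16496 in female mutants. FM3, with the lowest *Ghr*, also had the lowest sum, and FM4, with the highest *Ghr* of the female mutants, had the highest of that group. In male mutants MM1 was lowest and MM5 highest in both. The sums of FM4 (16496 CPM) and MM5 (19155 CPM) lay above those of every control of their sex, but their *Ghr* lay below every such control. In the joint comparison 1 of the 10 markers was called lower and 9 were not called, where 5.86% of all genes were called lower. The part of these markers in the fall of *Ghr* was not tested.

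Downstream of both receptors, 23 genes of JAK-STAT signalling and the growth hormone axis were tested. In the joint comparison 4 rose, 0 fell and 19 were not called, with a median log2 fold change of 0.07, where 15.9% of all genes were called. *Socs3*, a feedback inhibitor of cytokine receptors, rose most, by 2.37 ± 0.332 (adjusted p = 5.8e-05), from 2.69 ± 0.814 to 16.5 ± 10.9 CPM in males and from 4.00 ± 0.432 to 19.3 ± 12.9 CPM in females. *Stat3*, a signal transducer of cytokines, rose by 0.54 ± 0.101. *Stat5a* and *Stat5b*, the transducers of prolactin and growth hormone, also named after their values were seen, had log2 fold changes of -0.06 ± 0.0696 and -0.07 ± 0.0713 and were not called. Between the sexes in controls 7 of 22 were called (17.8% of all genes), 2 higher and 5 lower in males, and in mutants 3 of 23 were (5.42% of all genes). Among these, named after their values were seen, *Igfals*, which stabilizes circulating IGF1, was at 10.3 ± 1.93 CPM in males and 38.2 ± 8.79 CPM in females (-1.97 ± 0.182), and *Socs2*, a feedback target of STAT5, was at 19.6 ± 5.58 and 61.9 ± 14.6 CPM (-1.88 ± 0.173, SE).

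The mRNA of *Esr1*, estrogen receptor α, on chromosome 10 (4611593 to 5005614, plus strand), was higher in males than in females and lower in mutants than in controls. For the protein the study reported the opposite genotype direction. By Western blot, ESR1 was higher in P125 mutant kidneys of both sexes than in controls. Why mRNA and protein differ was not tested. The male controls were at 17.8, 18.3, 18.99, 20.5 and 22.3 CPM and the male mutants at 11.9, 13.4, 14.9, 15.4 and 16.04 CPM. The female controls were at 10.4, 10.7, 11.9, 14.3 and 15.8 CPM and the female mutants at 6.88, 7.02, 8.69, 8.99 and 9.63 CPM. Within each sex the genotypes did not overlap, and the sexes overlapped in neither genotype. Only male mutants and female controls, neighbours in the order of means, overlapped. The joint log2 fold change was -0.54 ± 0.0981 (adjusted p = 5.8e-04, edgeR), and it kept its call with each of the 20 mice left out in turn (adjusted p at most 0.0019). Within 1 sex it did not pass. The value was -0.48 ± 0.112 for males (adjusted p = 0.012) and -0.58 ± 0.169 for females (adjusted p = 0.074). In males DESeq2 (adjusted p = 0.0023), no filter on low counts (0.0090) and no litter block (0.0069) each brought a call, and in females the fit of all 20 mice did (0.0052). Males exceeded females by 0.69 ± 0.140 in controls (adjusted p = 0.0029), or 1.61 times, and by 0.85 ± 0.133 in mutants (adjusted p = 0.0025), or 1.80 times. The call in controls was lost without FC1, FC5 or MC5 (adjusted p 0.016 to 0.027), and that in mutants without FM1, FM5, MM3, MM4 or MM5 (0.013 to 0.021). All 3 litters had the same direction in each of the 4 comparisons. The closest genes over the 20 mice were *Itih2* (r = 0.920), *R3hdm1* (r = 0.917) and *Cog4* (r = 0.906).

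*Gper1*, the G protein-coupled estrogen receptor, was counted only 8 to 45 times per library, so its values carry a large counting error. It averaged 1.41 ± 0.181 CPM in male controls, 1.02 ± 0.527 in male mutants, 2.33 ± 0.238 in female controls and 1.55 ± 0.532 in female mutants. All 5 female controls, at 1.92 to 2.50 CPM, lay above all 5 male controls, at 1.14 to 1.57 CPM, but the difference was not called (-0.67 ± 0.218, adjusted p = 0.036) unless the litter block was dropped (adjusted p = 0.0091). The joint genotype change was -0.54 ± 0.214 (adjusted p = 0.071). The closest genes were *Dlg4* (r = 0.839), *Angel1* (r = 0.801) and *Epb4.1l1* (r = 0.800).

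Both *Esr2* and *Pgr* were at low levels. *Pgr* was not called in any comparison, and *Esr2* had enough reads to be tested only in females and for the sex by genotype term, where it was not called. *Esr2*, estrogen receptor β, had 2 to 23 counts per library, and the progesterone receptor *Pgr* averaged between 1.86 and 3.06 CPM over the groups. Of 8 other steroid receptors tested, 1 was lower in mutants in the joint comparison and 7 were not called, where 5.86% of all genes were called lower. That 1 was *Esrrb*, the third estrogen-related receptor, with -0.55 ± 0.110 (adjusted p = 0.0011). Of 9 estrogen response genes, *Ccnd1*, cyclin D1, rose by 0.98 ± 0.104, *Cxcl12*, a chemokine, was lower (-0.39 ± 0.0968), and 7 were not called. In that joint comparison 15.9% of all genes were called. Between male and female controls edgeR called 0 of these 9 (17.8% of all genes were called). There 5 of the 9 had an unadjusted p under 0.05, as did at least 4954 of all 14123 genes.

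*Nr3c2*, the mineralocorticoid receptor on chromosome 8 (76899442 to 77245012, plus strand), fell in mutants in the joint comparison. The male controls were at 13.1, 16.4, 17.2, 17.6 and 18.01 CPM and the male mutants at 10.4, 11.01, 12.9, 13.1 and 15.4 CPM, so 1 control lay among the mutants. The female controls were at 18.4, 19.001, 20.2, 24.2 and 24.9 CPM, above all female mutants at 11.3, 11.4, 16.2, 16.3 and 17.0 CPM. The joint log2 fold change was -0.48 ± 0.105 (adjusted p = 0.0022, edgeR), and it was called with each mouse left out in turn (adjusted p at most 0.0075). Males alone had -0.42 ± 0.123 (adjusted p = 0.034) and females alone -0.54 ± 0.166 (adjusted p = 0.089), with mutants lower in all 3 litters of either sex. Male controls lay below female controls without overlap, but by -0.33 ± 0.133, which was not called (adjusted p = 0.082). Its exons share 155 bases with *Gm10649* on the other strand, and whether the counting used strand is not given. The closest genes over the 20 mice were *Fads6* (r = 0.930), *Klhl3* (r = 0.917) and *Wnk1* (r = 0.909). KLHL3 and WNK1 belong to the pathway that sets the activity of the sodium chloride cotransporter of the distal convoluted tubule.

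Of 12 genes of aldosterone response and of sodium and potassium transport tested, 4 were lower in mutants in the joint comparison, 0 were higher and 8 were not called, with a median log2 fold change of -0.19, where 5.86% of all genes were called lower. *Slc12a3*, the sodium chloride cotransporter, went from 808 ± 105 to 398 ± 110 CPM in males and from 1174 ± 151 to 509 ± 120 CPM in females (-1.11 ± 0.136, adjusted p = 1.8e-05). *Kcnj1*, the potassium channel ROMK, had -0.69 ± 0.0854 and *Scnn1a*, the α subunit of the epithelial sodium channel, -0.47 ± 0.0770. *Sgk1*, an early target of the receptor named after its values were seen, was not called (-0.20 ± 0.199, adjusted p = 0.50). In controls 5 of the 12 were lower in males than in females and 0 were higher (17.8% of all genes were called). In mutants edgeR called none of the 12 between the sexes (5.42% of all genes were called). There 4 of the 12 had an unadjusted p under 0.05, as did at least 4266 of all 14416 genes. Markers of segments in which these genes are active were also lower in mutants. The 6 markers of loop and distal tubule summed to 8597 to 9254 CPM in male controls, 4948 to 6294 in male mutants, 12267 to 13132 in female controls and 5550 to 8544 in female mutants. *Slc12a3* is in both lists. All 6 markers were called lower in the joint comparison, with a median of -1.12. Of 8 collecting duct markers, 5 were called lower, among them *Scnn1g*, which is also in the transport list, with a median over the 8 of -0.34. Their part in the falls of *Nr3c2* and of the channels was not tested.

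*Nr3c1*, the glucocorticoid receptor, was the steadiest of the 9 genes. Its group means were 150 ± 7.69 CPM in male controls, 154 ± 15.0 in male mutants, 142 ± 11.5 in female controls and 146 ± 15.1 in female mutants, and all 4 groups overlapped. The joint log2 fold change was 0.05 ± 0.0567 (adjusted p = 0.52), and no comparison called it. The closest genes were *Fnbp1l* (r = 0.807), *Sppl2a* (r = 0.785) and *Elmod2* (r = 0.779). Of 12 glucocorticoid response genes edgeR called none in the joint comparison. At an unadjusted p under 0.05 there was 1 of the 12, and at least 4283 of all 14191 genes. In males 1 of the 12 was called by genotype, where 8.46% of all genes were. That 1 was *Mt1*, a metallothionein gene named after its values were seen, at 149.9 ± 18.8 CPM in controls and 106 ± 11.9 in mutants (-0.44 ± 0.0655, adjusted p = 0.0016). *Mt1* was also lower in male than in female mutants (-0.72 ± 0.139, adjusted p = 0.0074). Between the sexes *Fkbp5*, a receptor-bound chaperone whose gene is a classic target of glucocorticoid and androgen, was the only one called in controls (17.8% of all genes were called). In mutants 2 of the 12 were called between the sexes, *Fkbp5* and *Mt1* (5.42% of all genes were called). *Fkbp5* was named after its values were seen, and was at 106 ± 23.3 CPM in male and 52.8 ± 14.7 CPM in female controls (0.93 ± 0.195, adjusted p = 0.0035), and at 137 ± 38.7 and 36.7 ± 4.49 CPM in mutants (1.959 ± 0.170).

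*Hsd11b1*, on chromosome 1 (193221634 to 193264075, minus strand), was higher in males than in females in both genotypes. The male controls were at 115, 133, 147, 151 and 152 CPM and the female controls at 54.8, 57.9, 58.1, 61.1 and 65.2 CPM. The male mutants were at 98.4, 147, 168, 182 and 186 CPM and the female mutants at 35.2, 65.6, 69.1, 69.7 and 76.8 CPM. The lowest male exceeded the highest female in each genotype. Males exceeded females by 1.24 ± 0.0977 on the log2 scale in controls (adjusted p = 2.1e-06, edgeR), or 2.36 times, and by 1.31 ± 0.227 in mutants (adjusted p = 0.0044), or 2.48 times. The call in mutants was lost without FM1, FM5, MM3, MM4 or MM5, each left out alone (adjusted p 0.0155 to 0.0282), and without FM4, the lowest mouse, it was 1.19 (adjusted p = 0.0017). All 3 litters had the same direction, from 0.91 to 1.46 in controls and from 1.04 to 1.45 in mutants. Genotype made no called difference, with 0.16 ± 0.151 for males (adjusted p = 0.48) and 0.13 ± 0.186 for females (adjusted p = 0.77). Without FM4 the female value was 0.29 (adjusted p = 0.041). MM1, which had the highest KBW of all mice, was the lowest male mutant, and without it the mutant males were 0.36 above the controls (adjusted p = 0.0058). The closest genes over the 20 mice were *Mas1* (r = 0.955), the receptor for angiotensin 1-7, *Tc2n* (r = 0.954) and *Nlrc4* (r = 0.950), and the 2 sexes again formed separate clusters.

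*Hsd11b2*, the enzyme of the opposite reaction, had the opposite sex difference. It averaged 129 ± 20.8 CPM in male controls and 211 ± 28.7 in female controls (-0.63 ± 0.129, adjusted p = 0.0029), and 126 ± 10.1 and 199 ± 30.8 CPM in mutants (-0.68 ± 0.111, adjusted p = 0.0032). Genotype changed it by -0.07 ± 0.0863 in the joint comparison (adjusted p = 0.62). Per kilobase, the level of *Hsd11b1* divided by that of *Hsd11b2* was 0.480 ± 0.104 in male controls and 0.546 ± 0.151 in male mutants. In females the ratio was 0.124 ± 0.0186 in controls and 0.140 ± 0.0413 in mutants. The lowest male ratio, 0.329, exceeded the highest female ratio, 0.191. The enzymes are active in different cell types, so a ratio over the whole kidney is not one of any cell.

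Of 17 steroid hormone enzymes tested, 13 were called between male and female controls, 8 higher and 5 lower in males, against 17.8% of all genes. Between male and female mutants 8 of the 17 were called, 5 higher and 3 lower in males, against 5.42% of all genes. In the joint genotype comparison 4 rose, 2 fell and 11 were not called, against 15.9% of all genes called. *Srd5a1*, the steroid 5α-reductase that makes dihydrotestosterone, rose by 0.91 ± 0.218, from 32.8 ± 3.93 to 43.6 ± 4.54 CPM in males and from 14.2 ± 1.958 to 37.2 ± 21.0 CPM in females. *Hsd17b11*, which oxidizes steroids at carbon 17, rose by 0.61 ± 0.0997, and *H6pd*, which supplies HSD11B1 with NADPH, by 0.40 ± 0.0785. *Akr1c18*, a 20α-hydroxysteroid dehydrogenase that inactivates progesterone, was at 229 ± 97.96 CPM in female controls and 90.4 ± 30.1 in female mutants, and at 18.4 ± 5.48 and 8.04 ± 3.12 CPM in males (-1.25 ± 0.209). *Hsd17b2*, which inactivates estradiol and testosterone, had -0.58 ± 0.127. Of the 25 genes in this list, 2 are not among the symbols of the table and 6 more had too few reads to be tested. The *Hsd3b* genes are close relatives among which reads may be split.

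*Esrra*, estrogen-related receptor α, lies on chromosome 19 (6910977 to 6921813, minus strand). It averaged 175 ± 8.39 CPM in male controls and 146 ± 17.6 in male mutants. In females it averaged 170.2 ± 26.3 in controls and 127 ± 35.03 in mutants, where FM3 stood alone at 66.3 CPM and the other 4 were between 138 and 156 CPM. FM3 is also the mouse with the highest adipose sum. The genotypes overlapped in both sexes. The joint log2 fold change was -0.32 ± 0.107 (adjusted p = 0.032, edgeR), which was not called, and without FM3 it was smaller, -0.25, but called (adjusted p = 0.0052). Its exons share 91 bases with *Mir6990* on the same strand and 73 bases with *Trmt112* on the other strand. *Esrrg*, estrogen-related receptor γ, averaged 105 ± 7.95 CPM in male controls and 98.6 ± 13.1 in male mutants, and 101 ± 8.36 and 91.3 ± 15.5 CPM in female controls and mutants, and no comparison called it (joint -0.12 ± 0.0757, adjusted p = 0.27). The genes closest to *Esrra* were *Uqcrfs1*, *Atp5c1* and *Ndufb5* (r = 0.959, 0.959 and 0.957), all subunits of the mitochondrial respiratory chain or ATP synthase, and those closest to *Esrrg* were *Sacm1l* (r = 0.878) and *Peli2* (r = 0.856).

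Of 19 energy genes known as targets or partners of these receptors, 6 were lower in mutants in the joint comparison, 0 were higher and 13 were not called, where 5.86% of all genes were called lower. Their median log2 fold change was -0.26. *Cpt1b*, a carnitine palmitoyltransferase, had -1.37 ± 0.361 at a level of at most 1.79 CPM in any mouse. *Perm1*, a coregulator of the pathway first known from muscle, went from 8.73 ± 0.541 to 3.28 ± 0.896 CPM in males and from 14.1 ± 3.44 to 6.86 ± 1.57 CPM in females (-1.20 ± 0.138, adjusted p = 9.9e-06). *Vegfa* had -0.56 ± 0.137. Of 16 coregulators and chaperones of the receptors, *Ppargc1b*, the gene of PGC-1β, was the only one called in the joint comparison, where 15.9% of all genes were. It had -0.50 ± 0.0917 (adjusted p = 5.9e-04), and it stands in both lists. *Ppargc1a*, the gene of PGC-1α and likewise named after its values were seen, had -0.26 ± 0.0786 and was not called (adjusted p = 0.018).

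**Figure D3:**
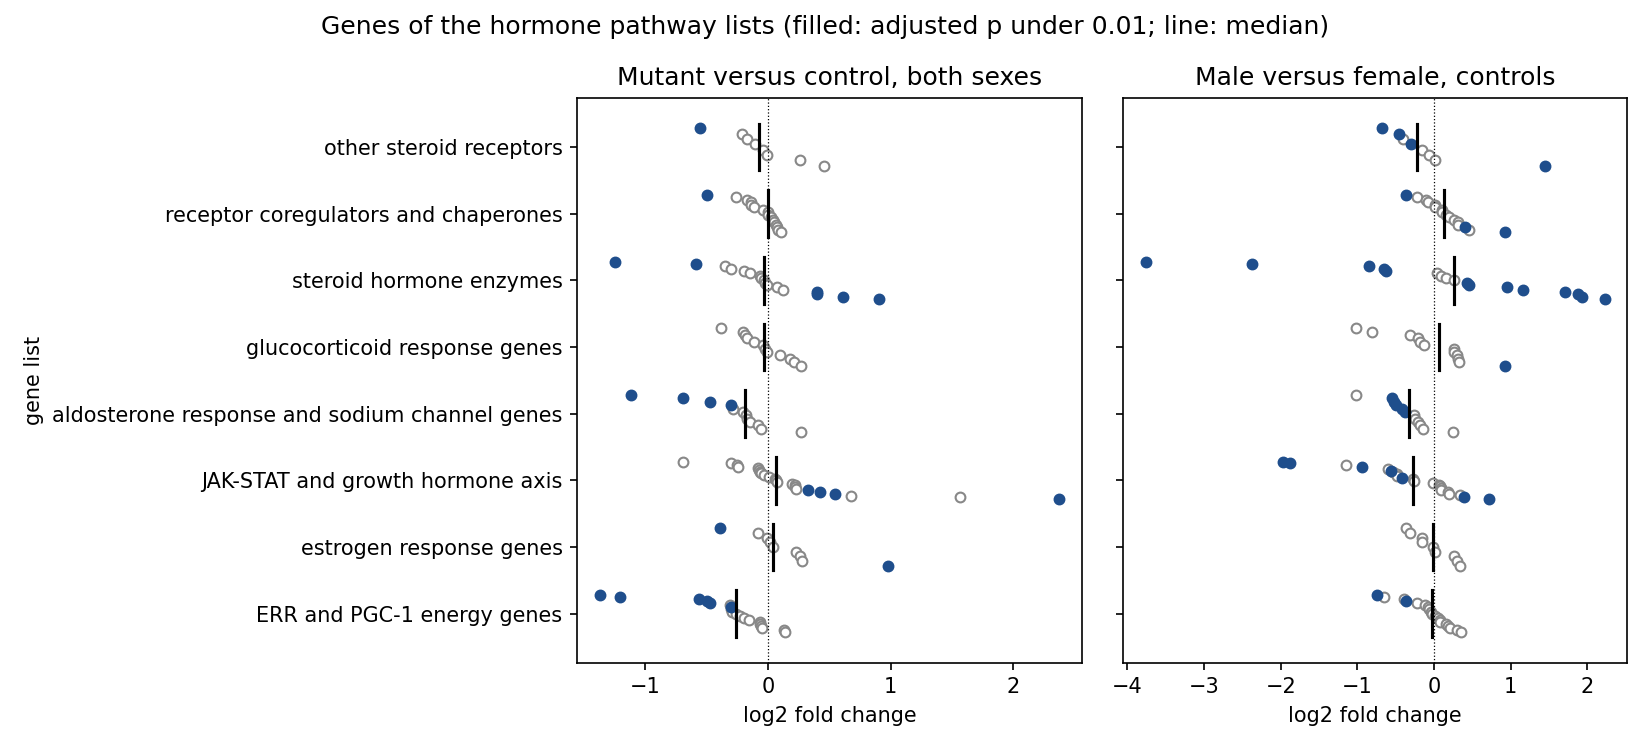
Log2 fold changes of the genes in 8 hormone pathway lists, for mutant versus control in both sexes (left) and male versus female in controls (right); each point is a gene, filled at an adjusted p under 0.01, and the line is the median of the list. The enzyme list spreads from *Akr1c18* at -3.76 to *Hsd17b11* at 2.23 between the sexes, and the medians of the sodium transport list (-0.19) and the energy list (-0.26) lie left of 0 on the left side.

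None of the 9 genes was related to KBW across the 10 mutants at the threshold. With sex as a covariate, edgeR called none of the 9 and none of all 14416 genes. At an unadjusted p under 0.05 there were 3212 genes, or 22.3%, among them 1 of the 9, and DESeq2 called 577 genes but none of the 9. That 1 was *Ghr*, with a slope of -0.53 ± 0.227 (SE) on the log2 scale per percentage point of KBW (unadjusted p = 0.036, adjusted p = 0.19). With litter added as a block it was -0.51 (adjusted p = 0.23). Without a sex term it was 0.05. The correlation of *Ghr* with KBW over the 10 mutants, after the mean of each sex was taken off, was r = -0.633 (permutation p = 0.032, adjusted p = 0.18) and rho = -0.782 (permutation p = 0.012, adjusted p = 0.12). The p-values came from all 14400 permutations within the sexes, with adjustment over the 14416 genes, of which 23.5% had a permutation p under 0.05 for r. Without MM1 and FM4, the mice farthest from the median KBW of all 10 mutants, r was weaker, -0.508 (permutation p = 0.21). The p-value also depends on the smaller number of mice, and the pair was not chosen by distance within each sex.

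Among the female mutants *Ghr* was lower at each step up in KBW. FM4, with a KBW of 0.836%, was at 815 CPM, FM5 (1.00%) at 753, FM2 (1.24%) at 653, FM1 (1.38%) at 647 and FM3 (1.46%) at 455 CPM. *Prlr* in the same 5 mice was at 309, 283, 256, 145 and 205 CPM, listed from the lowest KBW to the highest. In male mutants *Ghr* was lower at each step up in KBW except from MM4 to MM5. It was at 881 CPM in MM2 (1.22%), 810.2 in MM4 (1.54%), 983 in MM5 (1.71%), 788 in MM3 (1.79%) and 771 in MM1 (2.15%). With 5 mice per sex these orders are descriptions only. For the other 8 genes r lay between -0.513 for *Nr3c2* and 0.504 for *Gper1*, and its adjusted p was at least 0.33.

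**Figure D4:**
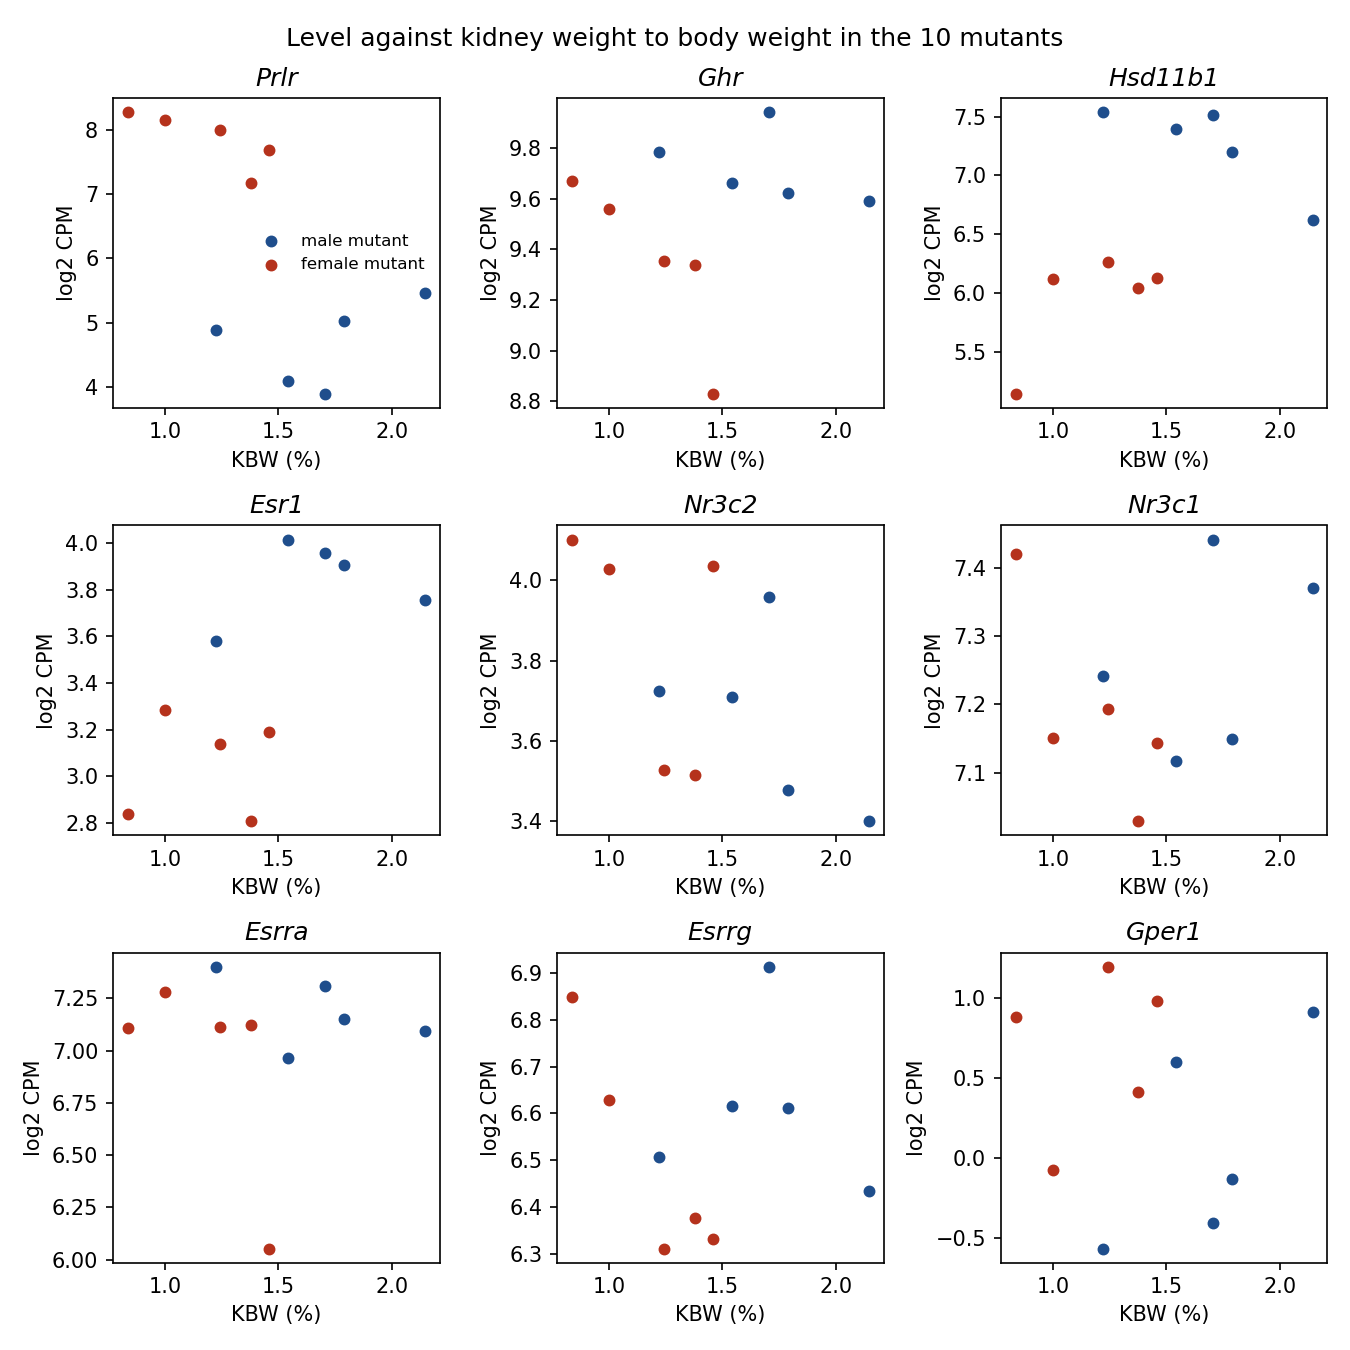
Level of the 9 genes (log2 CPM) against KBW in percent in the 10 mutants, each point a mouse, blue for males and red for females. Red points of *Ghr* lie lower at each step up in KBW, and those of *Prlr* do except from FM1 to FM3. Blue points of *Ghr* do so except from MM4 to MM5. With the mean of each sex taken off, *Prlr* had r = -0.00165 over the 10 mutants. No gene passed the threshold (smallest adjusted p of Pearson's r = 0.18, for *Ghr*).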

How the data were processed

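RNA of 20 kidneys, 1 library per mouse, was sequenced by the authors, who used fastp 0.23.2 for trimming, and STAR 2.7.10b with the mm10 genome for alignment. The authors deposited raw read counts, 1 whole number per library for each of 24411 symbols, of which 4576 had no count. Totals were 11307741 to 19324073 counts per library. The counting tool, gene annotation and strand setting are not given in the sources used here.

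Groups, litters and weights were taken from the labels. KBW is the labelled kidney weight, taken as that of 1 kidney in grams, as a percentage of body weight. The main test was that of edgeR 4.0.16 under R 4.3.3 (TMM normalization, filterByExpr, quasi-likelihood test, Benjamini-Hochberg adjustment over all genes tested). Litter was a block within each sex or genotype, for the joint comparison and for the term of sex by genotype the block was the 6 groups of sex and litter, and sex was the covariate for KBW. The study used DESeq2 with litter and sex groups as the covariate for genotype or sex, and DESeq2 1.42.0 was an alternative here. The sex by genotype term and the KBW slope are not models of the study. The SE of a log2 fold change is its size divided by the square root of the F statistic. CPM used TMM library sizes, and log2 CPM a prior count of 2. Levels per kilobase used the union of exons in GENCODE M21.

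The block rests on the labelled litters, not on the mouse numbers, which follow accession order and pair nothing. Mice are separate animals, but some groups have 1 mouse in a litter, so litter and mouse cannot be told apart there. The 9 genes, the pathway and marker lists and the tests were chosen with earlier results of these data known. Named beside the 9 were the 3 genes most correlated with each (mean CPM of at least 1), up to 3 risen and 3 fallen genes per list, *Esr2*, *Pgr*, *Hsd11b2* and *Pkd2*, a few genes under this rule are not reported here, and other genes are said to be named after their values were seen. Promoter sequences came from RefSeq (GRCm38.p6). The procedure was tested on simulated data with known changes. Alternatives were DESeq2's Wald test or only its size factors, a minimum of 10 counts per mouse or no filter, no litter block, all 20 mice in one fit, each mouse left out, and for KBW other covariates, log2 KBW and Spearman's rho.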

Additional observations from a re-analysis of the deposited data

Results flagged for a closer look

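Within the 36 sets of 5 mice (9 genes in 4 groups), 3 held a mouse that stood apart by Dixon's test, where 1.8 are expected by chance. *Esrra* was at 66.3 CPM in FM3, and its gap to the next female mutant was 0.800 of the group's range, above the critical value of 0.71. *Hsd11b1* was at 35.2 CPM in FM4, with a ratio of 0.730, and *Gper1* was at 1.92 CPM in the female control FC1, with a ratio of 0.757. FM4 is the library with fewer detected genes, and without it *Hsd11b1* averaged 70.3 ± 4.71 CPM (SD) in female mutants. FM3 is the library with the highest adipose sum.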

How the results depend on the processing

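The joint comparison kept its 3 genes (*Esr1*, *Nr3c2*, *Ghr*) in every alternative, with 3 to 4 called over the mice left out in turn, the fourth being *Esrra* without FM3. In males 1 gene was called, and 2 were with DESeq2, with no filter on low counts and with no litter block, 0 with all 20 mice in one fit, and 0 to 2 over the mice left out. In females 0 were called, and 1 was with DESeq2 and with all 20 mice in one fit (0 over the mice left out, FM4 included). Between the sexes 3 were called in controls and in mutants, with 2 to 3 and 1 to 3 over the mice left out. No litter block gave 4 in controls (*Gper1* in addition) and changed no other count between the sexes, for the joint comparison, for females or for the sex by genotype term. Of 1282 alternative values of single genes, 1191 kept their direction and side of the threshold, 63 changed sign, and all of those were uncalled. These were *Prlr* in males with no block (-0.026), *Esrra* between control sexes with all 20 mice (-0.011), and the sex by genotype term of *Nr3c1* with DESeq2 size factors (-0.0136), DESeq2 (-0.0124), at least 10 counts (-0.00247) and no block (-0.00529). For KBW they were, with no sex term, *Nr3c1* (0.0247), *Gper1* (-0.0373), *Prlr* (-2.74), *Ghr* (0.0526) and *Hsd11b1* (1.07), with log2 KBW *Prlr* (-0.19) and *Hsd11b1* (0.0205), and with a litter block *Prlr* (-0.0512).

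With mice left out in turn, sign changed within these ranges. For the slope on KBW they were -0.14 to 0.29 for *Esr1*, -0.77 to 0.43 for *Hsd11b1*, -0.246 to 0.0924 for *Nr3c1* and -0.90 to 0.33 for *Prlr*. For the correlation with KBW they were -0.18 to 0.385, -0.771 to 0.404, -0.411 to 0.243 and -0.517 to 0.156, in the same order of genes. For the sex by genotype term they were -0.11 to 0.13 for *Esrrg*, -0.0060 to 0.22 for *Ghr*, -0.31 to 0.42 for *Gper1*, -0.0882 to 0.213 for *Hsd11b1* and -0.124 to 0.0932 for *Nr3c1*. They were -0.0306 to 0.193 for *Esrra* between control sexes, -0.0113 to 0.143 for *Nr3c1* between mutant sexes, and -0.0202 to 0.132 for *Nr3c1* and -0.11 to 0.21 for *Prlr* by genotype in males. The cause of these changes was not tested. All 45 alternative group levels moved by less than 1 SD. The median SE over all genes was 0.107 in males and 0.150 in females.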
